A study of Mus musculus with 6 samples.

Results

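The genes described here form the extracellular ATP, NAD and adenosine system of thymic iNKT1 cells: P2rx7, P2rx4, Entpd1, Nt5e, Adora2a, Art2b and Cd38. They were chosen by name, with earlier results of these data known, and all 7 were found among the 17985 genes of the deposited table. All 7 averaged at least 1 CPM (reads of a gene scaled to the library total) and so were among the 15691 genes tested. The libraries came from iNKT1 cells, the T-bet-expressing subset of invariant natural killer T cells, isolated from the thymus of untreated mice on a C57BL/6 background. Control mice (Ctrl, 3 libraries) carried a Cre transgene under Tbx21 (Tbx21CreTg) and the reporter Rosa26-LSL-YFP+/+, which turns on yellow fluorescent protein after Cre activity. Conditional knockout mice (cKO, 3 libraries) carried the same transgene and reporter and, in addition, the loxP-flanked Tgfbr2 allele pair Tgfbr2F/F, so the comparison asks which transcripts differ where this TGF-beta receptor gene is deleted. Cre is present in both groups, and it can act only in cells that have used the Tbx21 promoter. Age and sex of the mice are not given in the sources used here. The labels call the replicates independent without saying whether each came from 1 mouse or from a pool, so p-values measure only the spread between these libraries.

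ATP and NAD leave stressed or activated cells and are read by surface proteins before they are broken down. P2X7 and P2X4 are ATP-gated cation channels, and in mouse T cells the enzyme ART2.2, encoded by Art2b, uses NAD to modify P2X7 and so opens it. CD39 (Entpd1) converts ATP to AMP, CD73 (Nt5e) converts AMP to adenosine, and the adenosine A2A receptor (Adora2a) answers by raising cyclic AMP, which restrains T cells. CD38 consumes NAD and competes with ART2.2 for it.

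The starting point of 4 of the 7 genes is shown by the promoter, 250 bases before to 50 bases after the start. The letters are from RefSeq on GRCm38.p6, printed 5′ to 3′ on the strand of the gene. Of the 7 genes, 6 had an entry. The 4 genes printed are those with the largest fold changes, and the capitals mark the letters CAGAC or their reverse complement GTCTG, the core of the element bound by SMAD proteins, the transducers of TGF-beta signals. P2rx7 has 2 entries, and the second precedes an alternative first exon. The Nt5e coordinates given below start at 88327197, so by them the printed Nt5e window, from 88327359, lies inside the gene.

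P2rx7, first start, chr5:122643677-122643976, plus strand: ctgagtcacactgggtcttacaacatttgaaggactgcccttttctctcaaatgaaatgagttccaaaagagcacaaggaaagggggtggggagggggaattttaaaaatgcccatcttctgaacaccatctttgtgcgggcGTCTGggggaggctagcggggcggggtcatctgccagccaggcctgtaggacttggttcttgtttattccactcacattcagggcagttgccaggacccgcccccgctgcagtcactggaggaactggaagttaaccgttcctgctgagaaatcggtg
P2rx7, second start, chr5:122650133-122650432, plus strand: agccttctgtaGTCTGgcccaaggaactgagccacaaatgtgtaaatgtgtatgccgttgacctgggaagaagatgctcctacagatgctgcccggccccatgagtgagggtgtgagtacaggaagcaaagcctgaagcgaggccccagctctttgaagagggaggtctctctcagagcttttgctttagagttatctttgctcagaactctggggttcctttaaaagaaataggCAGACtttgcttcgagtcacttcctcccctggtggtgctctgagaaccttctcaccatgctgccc
P2rx4, chr5:122707294-122707593, plus strand: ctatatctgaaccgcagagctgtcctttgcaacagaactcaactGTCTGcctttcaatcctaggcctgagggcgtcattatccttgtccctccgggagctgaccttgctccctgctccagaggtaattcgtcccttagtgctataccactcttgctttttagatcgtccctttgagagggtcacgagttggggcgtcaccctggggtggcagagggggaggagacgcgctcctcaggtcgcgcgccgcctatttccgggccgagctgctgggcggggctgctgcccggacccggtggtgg
Art2b, chr7:101581112-101581411, minus strand: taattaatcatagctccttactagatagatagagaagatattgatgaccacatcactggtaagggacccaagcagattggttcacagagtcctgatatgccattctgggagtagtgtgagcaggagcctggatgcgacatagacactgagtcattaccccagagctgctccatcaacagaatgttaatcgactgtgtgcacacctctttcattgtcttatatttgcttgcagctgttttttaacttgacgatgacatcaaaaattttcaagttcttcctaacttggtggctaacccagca
Nt5e, chr9:88327359-88327658, plus strand: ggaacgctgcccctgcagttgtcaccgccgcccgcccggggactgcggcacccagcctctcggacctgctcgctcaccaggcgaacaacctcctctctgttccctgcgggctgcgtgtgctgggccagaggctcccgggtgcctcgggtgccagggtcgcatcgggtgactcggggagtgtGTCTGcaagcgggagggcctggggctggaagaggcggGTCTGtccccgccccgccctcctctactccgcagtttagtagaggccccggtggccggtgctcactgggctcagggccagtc

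The CAGAC core, searched on both strands, was present 2 times in the Nt5e window, 2 times in the second P2rx7 window, 1 time in the first P2rx7 window and 1 time in the P2rx4 window. None was found in the Art2b window. At least 1 core was present in 49.6% of the 32851 promoters of the same length, and at least 2 in 16.2%, so these letters are common. Other motifs were also searched on both strands in these windows: the SMAD palindrome GTCTAGAC (0.213% of all promoters), the T-box element TCACACCT (1.28%) and the cyclic AMP response element TGACGTCA (1.79%). None of these was found in the windows of the 6 genes. The windows also differed in composition, with 71.0% G and C and 23 CpG sites for Nt5e against 42.3% and 3 CpG sites for Art2b.

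Of the 7 genes, Nt5e was the one that fell, and the one that passed in both fits used here. Nt5e (ENSMUSG00000032420, chromosome 9, 88327197 to 88372092, plus strand) had 163, 205 and 169 CPM in the Ctrl libraries and 49.0, 46.5 and 52.2 CPM in the cKO libraries, here and below in the order of replicates 1, 2 and 3. The cKO libraries lay close together and far below the lowest Ctrl library. The mean fell from 179 ± 22.8 CPM in Ctrl to 49.2 ± 2.85 CPM, which left 27.5% of the Ctrl level (here and below, means are given ± SD with n = 3 libraries per group). On the log2(CPM + 1) scale this was a fold change of -1.83 (standard error 0.113, limma adjusted p 0.00215). In bulk libraries, fewer cells with the transcript and less transcript per cell cannot be told apart.

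**Figure D1:**
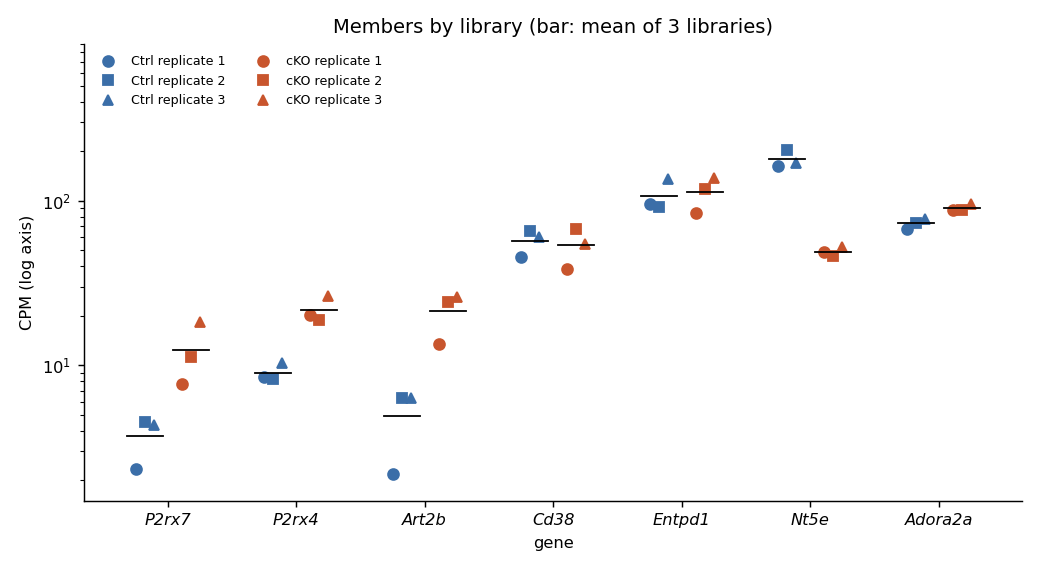
CPM (log axis) of the 7 genes in each of the 3 Ctrl (blue) and 3 cKO (red) libraries, with the marker shape giving the replicate number and the bar the mean. Nt5e lies between 46.5 and 52.2 CPM in cKO and between 163 and 205 CPM in Ctrl, while Cd38 and Entpd1 overlap between the groups.

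Libraries with the same replicate number deviated together from their group means, so the replicate number was also fitted as a block. That fit is given beside each gene discussed whose call it changed. The labels do not state that such libraries are paired. Deviations of Ctrl replicate 2 correlated slightly more with cKO replicate 1 (0.718) than with cKO replicate 2 (0.687). The limma calls made only with the block rest on this pairing. Nt5e alone passed an adjusted p of 0.05 without the block, 1 gene of 7, where 0.663% of all tested genes passed (0.204% as higher and 0.459% as lower). At an unadjusted limma p under 0.05, 4 of the 7 were higher, where 2.33% of all tested genes were. With the block 4 of the 7 passed the adjusted threshold, where 2.87% of all tested genes did. These were P2rx7, P2rx4 and Art2b as higher (1.24% of all tested genes) and Nt5e as lower (1.64%). Ctrl and cKO libraries were fully separated for 5 of the 7, those 4 genes and Adora2a, against 11.0% of all tested genes. For 4 of these 5 the cKO libraries were the higher ones, against 3.89% of all tested genes, and for Nt5e they were the lower ones, against 7.10%. The 7 genes were chosen with earlier results of these data known, so these shares are a description and not a test.

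P2rx7 (ENSMUSG00000029468, chromosome 5, 122643911 to 122691432, plus strand) had 2.35, 4.52 and 4.32 CPM in Ctrl libraries and 7.66, 11.3 and 18.3 CPM in cKO libraries. Every cKO library was above every Ctrl library, and the cKO libraries spread widely. The Ctrl mean was 3.73 ± 1.20 CPM and the cKO mean 12.4 ± 5.41 CPM. Against the Ctrl library of the same number, the cKO level was 3.26, 2.502 and 4.23 times as high in replicates 1 to 3. On the log2 scale the difference of 1.46 (standard error 0.368, 95% interval 0.59 to 2.34) did not pass without the block (limma adjusted p 0.304). With the block it passed (standard error 0.192, limma adjusted p 0.00430).

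P2rx4 (ENSMUSG00000029470, chromosome 5, 122707584 to 122729738, plus strand), the second ATP-gated channel, gave 8.47, 8.29 and 10.3 CPM for Ctrl and 20.3, 18.8 and 26.5 CPM for cKO. The groups did not overlap, and the highest library of each group was in replicate 3. Ctrl averaged 9.01 ± 1.10 CPM and cKO 21.8 ± 4.08 CPM, and the ratio within a replicate number was 2.39, 2.27 and 2.58. Its log2 fold change of 1.18 (standard error 0.181) came just short of the threshold without the block (limma adjusted p 0.0541) and passed with it (0.00296). Without the block it also passed in replicates 1 and 2 alone (1.13, limma adjusted p 0.0190) and among genes of at least 5 CPM (0.0339), but not with TMM factors (0.104) or under edgeR (0.135). The 6 fits that each left out a library gave limma adjusted p values from 0.101 to 0.277.

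The P2rx7 and P2rx4 genes are neighbours on the same strand, 16152 bases apart. The other tested genes within 100 kb of either did not pass in either fit. Ift81, which lies 29393 bases from P2rx7 on its far side and encodes a component of ciliary transport, had a log2 fold change of 0.097 (limma adjusted p with the block 0.891). Camkk2, which lies 1435 bases beyond the end of P2rx4 and encodes a calcium-dependent kinase, had -0.18 (0.677 with the block), and Anapc5, a subunit of the anaphase-promoting complex, had -0.13 (0.591 with the block). Per kilobase of exon, P2rx7 stood at 0.326, 0.641 and 0.495 times the P2rx4 level in Ctrl and at 0.445, 0.708 and 0.814 times in cKO. The ratio was higher in cKO within each replicate number, but the groups overlapped.

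**Figure D2:**
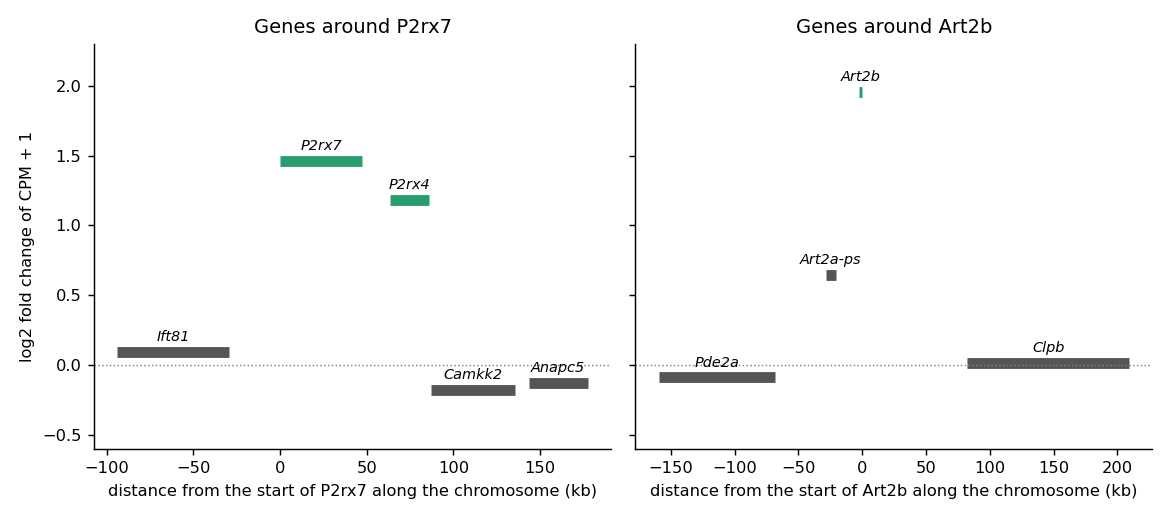
Position of each tested gene around P2rx7 (left) and Art2b (right), in kilobases along the chromosome from the start of that gene, against its log2 fold change of CPM + 1, with genes past the threshold in the blocked fit in green. P2rx7 (1.46) and P2rx4 (1.18) stand above Ift81, Camkk2 and Anapc5, and Art2b (1.96) above its relative Art2a-ps (0.64) and above Pde2a and Clpb.

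Art2b, the NAD-using partner of P2X7, had the largest fold change of the 7 genes in the fit used here, while Nt5e was further from 0 with a pseudocount of 5 CPM, without Ctrl replicate 1 and without cKO replicate 3. Art2b (ENSMUSG00000030651, chromosome 7, 101578860 to 101581161, minus strand) gave 2.17, 6.34 and 6.29 CPM for Ctrl and 13.6, 24.2 and 26.0 CPM for cKO. Replicate 1 was the lowest library of each group, and the groups did not overlap. Ctrl averaged 4.93 ± 2.39 CPM and cKO 21.3 ± 6.72 CPM, and the ratio within a replicate number was 6.25, 3.82 and 4.13. Its log2 fold change of 1.96 (standard error 0.407, 95% interval 0.99 to 2.93) did not pass without the block (limma adjusted p 0.159). With the block it passed (standard error 0.165, limma adjusted p 4.12e-04).

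Art2b has a close relative next to it, the pseudogene Art2a-ps, which does not make an intact enzyme in this strain. The transcripts were 86.3% identical over 1205 aligned bases, so some reads of 75 bases may have been assigned to either gene. Art2a-ps had 1.90, 1.17 and 0.132 CPM in Ctrl libraries and 3.29, 2.59 and 0.764 CPM in cKO libraries, with a log2 fold change of 0.64 that passed neither without the block (limma adjusted p 0.99998) nor with it (0.0935). It was higher in cKO within each replicate number, although the groups overlapped and replicate 3 held only 7 Ctrl and 52 cKO reads. The other tested genes within 100 kb, Pde2a (log2 fold change -0.088) and Clpb (0.018), were at a limma adjusted p with the block of 0.825 and 0.977. The length given for Art2b in the deposited table was 870 bases, against 2828 exon bases in GENCODE release M21, and which of these bases were counted is not given in the sources used here.

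P2rx7 and Art2b were low in Ctrl, and the libraries differed in the level of genes that had no read in replicate 3. The first principal component held 85.1% of the variance and separated the replicate 3 libraries from the others. In the table, 4098 genes had no read in either replicate 3 library, and these same genes had a median of 2.14 CPM in Ctrl replicate 1, 1.77 in Ctrl replicate 2, 2.46 in cKO replicate 1 and 1.45 in cKO replicate 2. In Ctrl replicate 1, P2rx7 (2.35 CPM) exceeded 54.1% of those genes and Art2b (2.17 CPM) 50.1%. In cKO replicate 1, P2rx7 exceeded 90.7% of them and Art2b 96.9%. Art2a-ps exceeded 42.3% and 27.0% of those genes in Ctrl replicates 1 and 2, and 64.3% and 73.4% in cKO replicates 1 and 2. Whether those genes were silent in replicates 1 and 2 was not tested. The part of this low signal in the Ctrl levels of replicates 1 and 2 was not tested either. In replicate 3, where those genes are at 0 by the way they were chosen, P2rx7 had 229 Ctrl and 1247 cKO reads and Art2b 333 and 1769. In replicates 1 and 2 alone the log2 fold changes were 1.26 for P2rx7 (limma adjusted p 0.139, and 1.05e-04 with the block) and 1.99 for Art2b (0.0950, and 6.12e-11 with the block), where the block leaves a single residual degree of freedom per gene.

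**Figure D3:**
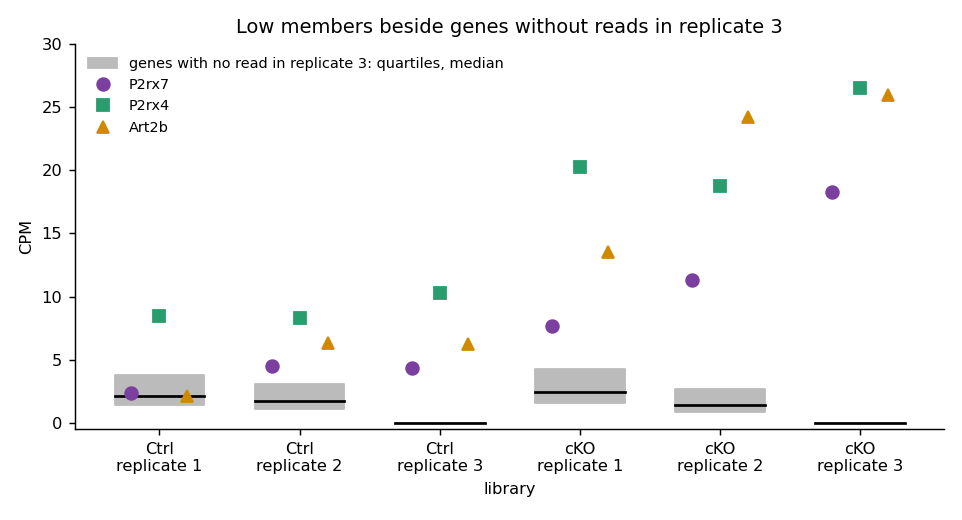
CPM of P2rx7, P2rx4 and Art2b in each library beside the quartiles (grey) and median (line) of the 4098 genes that had no read in either replicate 3 library. In Ctrl replicate 1, P2rx7 and Art2b fall inside the grey range (1.40 to 3.84 CPM), whereas all 3 genes lie above it in the cKO libraries.

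Adora2a (ENSMUSG00000020178, chromosome 10, 75316943 to 75334788, plus strand), the receptor at the end of the adenosine arm, gave 67.7, 73.8 and 77.7 CPM for Ctrl and 87.6, 87.9 and 95.4 CPM for cKO. The groups did not overlap, but the step between them was small beside those of the genes above. Ctrl averaged 73.0 ± 5.04 CPM and cKO 90.3 ± 4.42 CPM. The difference of 0.30 on the log2 scale (95% interval 0.087 to 0.52) did not pass without the block (limma adjusted p 0.478) or with it (0.156). DESeq2 on the recovered reads gave 0.36 with an adjusted p of 0.0466.

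Entpd1 (ENSMUSG00000048120, chromosome 19, 40612366 to 40741602, plus strand), which acts just before Nt5e in the breakdown of ATP, gave 96.0, 91.2 and 136 CPM for Ctrl and 84.7, 119 and 137 CPM for cKO. The groups overlapped, and replicate 3 was the highest library of each. Ctrl averaged 108 ± 24.3 CPM and cKO 114 ± 26.7 CPM. Its log2 fold change of 0.073 had a 95% interval from -0.45 to 0.60 (limma adjusted p 0.99998), and from -0.19 to 0.33 with the block (0.872). Its direction changed when Ctrl replicate 2 or cKO replicate 3 was left out.

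Cd38 (ENSMUSG00000029084, chromosome 5, 43868809 to 43912375, plus strand), the competitor for NAD, gave 45.5, 65.8 and 59.96 CPM for Ctrl and 38.6, 67.6 and 54.5 CPM for cKO. Replicate 1 was lowest in each group and the groups overlapped. Ctrl averaged 57.1 ± 10.5 CPM and cKO 53.6 ± 14.5 CPM. Its log2 fold change of -0.11 had a 95% interval from -0.66 to 0.44 (limma adjusted p 0.99998), and from -0.34 to 0.12 with the block (0.757). Its direction changed without cKO replicate 1.

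**Figure D4:**
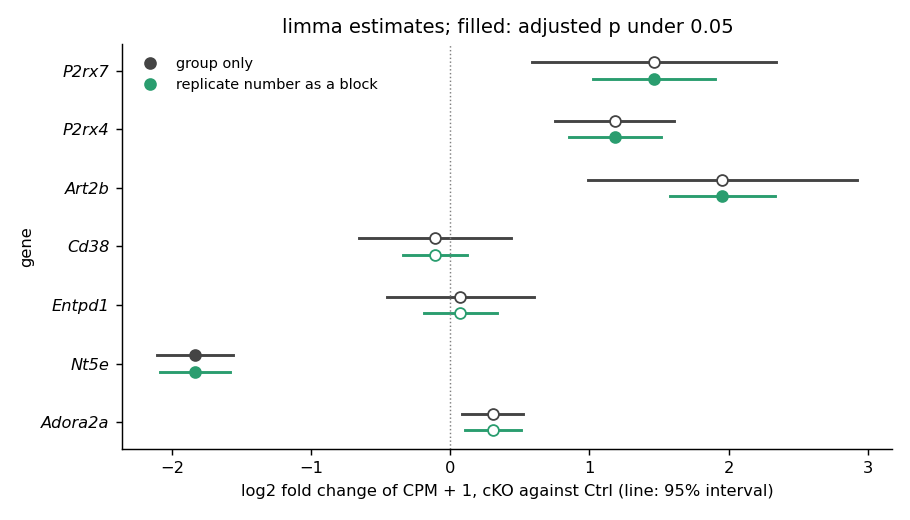
limma log2 fold changes of CPM + 1 (cKO against Ctrl) with 95% intervals for the 7 genes, with group as the only term (dark) and with the replicate number as a block (green), filled where the adjusted p was under 0.05. Nt5e (-1.83) is filled in both fits, and P2rx7, P2rx4 and Art2b only with the block.

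Levels of different genes were compared per kilobase of exon, with the exon bases of GENCODE release M21. In Ctrl the order was Adora2a (23.9 ± 1.65 CPM per kb), Nt5e (20.8 ± 2.66), Entpd1 (19.3 ± 4.36), Cd38 (14.7 ± 2.69), Art2b (1.74 ± 0.846), P2rx4 (1.28 ± 0.156) and P2rx7 (0.625 ± 0.201), each as SD over 3 libraries. Neighbours among the upper 4 overlapped, as did Art2b and P2rx4, while Cd38 lay above Art2b and P2rx4 above P2rx7 in every library. In cKO the order was Adora2a (29.5 ± 1.44 CPM per kb), Entpd1 (20.4 ± 4.78), Cd38 (13.8 ± 3.73), Art2b (7.52 ± 2.38), Nt5e (5.72 ± 0.332), P2rx4 (3.11 ± 0.581) and P2rx7 (2.08 ± 0.907). Here Entpd1 overlapped Cd38, Art2b overlapped Nt5e and P2rx4 overlapped P2rx7, and the other neighbours did not overlap. Nt5e thus stood below Entpd1 and Cd38 in every cKO library. Within a library, Nt5e stood at 1.10, 1.46 and 0.809 times the Entpd1 level per kb in Ctrl replicates 1 to 3 and at 0.375, 0.254 and 0.246 times in cKO. The order changed with the gene model. With the lengths of the deposited table, Adora2a in Ctrl was followed by Cd38 (18.9 ± 3.47 CPM per kb), Nt5e (17.5 ± 2.23) and Entpd1 (9.23 ± 2.09), and Art2b was second in cKO (24.4 ± 7.72). By those lengths Nt5e stood at 1.93, 2.56 and 1.42 times the Entpd1 level in Ctrl and at 0.658, 0.445 and 0.432 times in cKO.

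The other genes of these pathways were read from lists chosen with earlier results of these data known. Of the 93 listed genes, the 7 above among them, 69 were in the table and 64 were tested. Without the block limma called 0 higher and 2 lower (8 and 5 at an unadjusted p under 0.05), edgeR called 0 and 1 and DESeq2 7 and 4. At the unadjusted threshold 2.33% of all tested genes were higher and 3.68% lower, and the shares at the adjusted thresholds are those given for the 7 genes. With the block limma called 5 higher (1.24% of all tested genes) and 2 lower (1.64%). Of these, P2rx7, P2rx4, Art2b and Nt5e are among the 7 genes above, while Acpp and Dpp4 (higher) and Pde4a (lower) are not. The median of their log2 fold changes was 0.014, against -0.038 over all tested genes.

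Among nucleotide receptors, 6 genes were tested, with log2 fold changes from -0.38 to 1.46, and P2rx7 and P2rx4 were those that passed with the block. P2ry10, a lysophospholipid-responsive relative of the nucleotide receptors with the highest CPM of this list before any scaling to length, averaged 44.4 ± 2.496 CPM (Ctrl) and 45.7 ± 2.91 CPM (cKO; limma adjusted p 0.99998). P2rx3, another ATP-gated channel, gave 3.33, 2.79 and 0.0378 CPM for Ctrl and 4.75, 1.17 and 0 CPM for cKO, so it was nearly without reads in replicate 3. Adora2a was the only adenosine receptor analysed here.

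Among ectonucleotidases and phosphatases, 7 were tested, and 1 rose and 1 fell with the block. Beside the fall of Nt5e, Acpp, an acid phosphatase that can also turn AMP into adenosine, gave 27.5, 26.8 and 33.9 CPM for Ctrl and 48.0, 47.4 and 46.0 CPM for cKO. Its cKO libraries were close together and all above Ctrl. Its log2 fold change of 0.67 had a limma adjusted p of 0.0909 without the block and 0.0214 with it. The means were 29.4 ± 3.89 CPM (Ctrl) and 47.1 ± 0.996 CPM (cKO). Of the 3 tested NAD-consuming ectoenzymes, Art2b passed with the block, and Cd38 and Art2a-ps did not.

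Of the genes listed for adenosine clearance, 9 were tested, and 1 passed with the block. Dpp4, which encodes the surface protein CD26, gave 38.0, 54.9 and 64.1 CPM for Ctrl and 47.8, 87.3 and 90.1 CPM for cKO. The groups overlapped, but within each replicate number cKO was higher, and the log2 fold change of 0.49 had a limma adjusted p of 0.0460 with the block against 0.99998 without it. The purine nucleoside transporter gene Slc28a2 averaged 182 ± 11.8 CPM (Ctrl) and 235 ± 28.1 CPM (cKO), without overlap, and did not pass with the block (limma adjusted p 0.111). Slc29a1, an equilibrative nucleoside transporter, was at 98.4 ± 4.98 and 102 ± 14.4 CPM (limma adjusted p with the block 0.900).

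Of 11 tested genes of ATP release, limma called 0 in either fit (0 also at an unadjusted p under 0.05), and their log2 fold changes ran from -0.54 to 0.14. The members with the most CPM, not scaled to length, were Lrrc8c, a subunit of volume-regulated channels (147 ± 17.3 CPM for Ctrl, 136 ± 18.8 CPM for cKO), and Panx1, the pannexin channel through which ATP leaves cells (131 ± 22.4 and 132 ± 23.9 CPM). Of 8 tested genes of NAD synthesis limma also called 0 in either fit, with 3 below an unadjusted p of 0.05, all lower (3.68% of all tested genes were). The fold change was negative for 6 of the 8, against 59.0% of all tested genes, and the median was -0.20 on the log2 scale. For 4 of these 8 the cKO libraries lay wholly below Ctrl, where 7.10% of all tested genes did. Nadk, the NAD kinase, averaged 163 ± 5.08 CPM (Ctrl) and 139.9 ± 6.47 CPM (cKO; limma adjusted p with the block 0.267), and Nampt, the rate-limiting enzyme of NAD salvage, at 29.0 ± 1.96 and 31.8 ± 1.83 CPM (0.741).

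In the cyclic AMP arm, through which the A2A receptor signals, 19 genes were tested and 1 passed in each fit. Pde4a, a phosphodiesterase that breaks down cyclic AMP, fell from 42.5, 38.6 and 45.2 CPM in Ctrl to 15.5, 15.1 and 8.61 CPM in cKO. The cKO libraries were all far below Ctrl, with replicate 3 the lowest. Its log2 fold change was -1.65 (standard error 0.226, limma adjusted p 0.0348, and 0.00236 with the block). Under edgeR without the block the adjusted p was 0.0755. Pde4a kept its call in 1 of 6 fits that each left out a library, the fit without cKO replicate 3 (-1.40, limma adjusted p 0.0117). In the other 5 fits the log2 fold change stayed between -1.79 and -1.60, and the adjusted p came to 0.166, 0.171 and 0.157 without Ctrl replicates 1, 2 and 3, and to 0.0549 and 0.116 without cKO replicates 1 and 2. Prkar1a, a regulatory subunit of protein kinase A, averaged 1336 ± 58.2 CPM (Ctrl) and 1211 ± 132 CPM (cKO), and Adcy7, an adenylyl cyclase, at 617 ± 59.8 and 536 ± 70.5 CPM (limma adjusted p with the block 0.454 and 0.432).

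**Figure D5:**
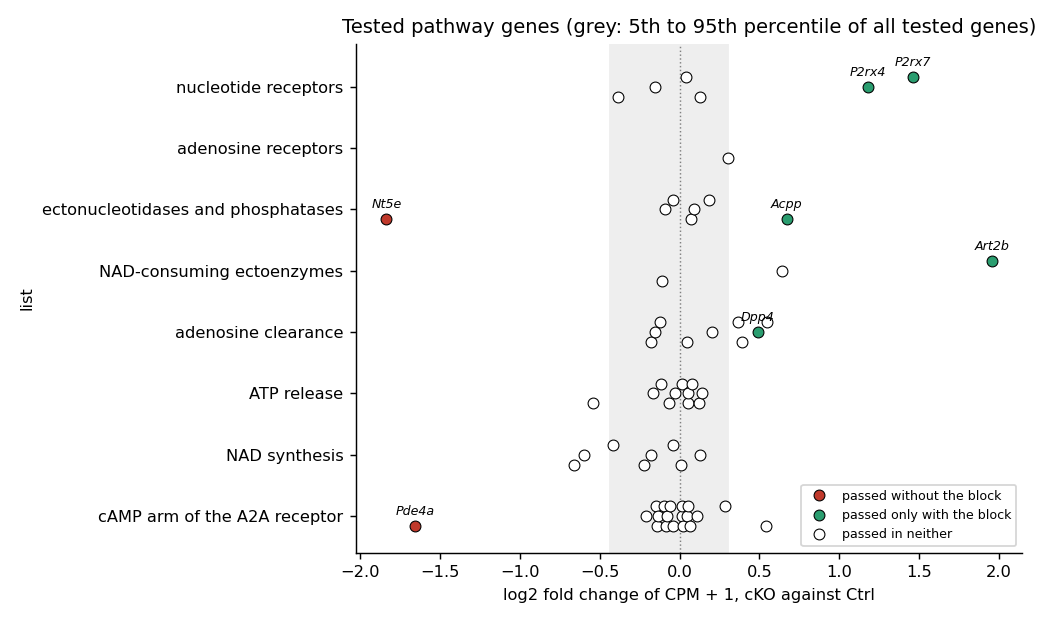
log2 fold changes of CPM + 1 of the tested genes in each pathway list, with red for genes past an adjusted p of 0.05 without the block and green for those past it only with the block. Nt5e (-1.83) and Pde4a (-1.65) lie far left of the grey band, which spans the 5th to 95th percentile of all tested genes (-0.43 to 0.31), and Art2b, P2rx7, P2rx4, Acpp and Dpp4 lie to its right.

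The labels were checked against known genes. Tgfbr2 was lower in every cKO library, with 61.0% of the Ctrl mean left. It lies on chromosome 9 (116087698 to 116175363), the chromosome of Nt5e. Acpp (104288316 to 104337728) and Pde4a (21165714 to 21213248) lie on that chromosome too. The part of linkage to Tgfbr2 in the levels of Nt5e, Acpp and Pde4a was not tested. Markers of T and iNKT1 cells were all present, at summed levels of 11029 to 13239 CPM in Ctrl and 10858 to 15238 CPM in cKO, among them Tbx21, Zbtb16 and Cd3e. Of these 12, Xcl1 fell from 181 ± 26.6 to 91.5 ± 6.51 CPM (limma adjusted p 0.0281), Il2rb rose only with the block (limma adjusted p 0.0166, against 0.99998), and Klrb1c was at 179.9 CPM in Ctrl replicate 2 against 566 and 703 CPM in the other Ctrl libraries. Since several of the 7 genes are also used by other cells, markers of those were summed. B cell markers (6 of 10 in the table) came to 23.2 to 37.1 CPM in Ctrl and 15.6 to 50.3 CPM in cKO, and myeloid and dendritic markers (9 of 13) to 104 to 130 and 95.6 to 122 CPM, most of it Cst3. In replicate 3, Ebf1, Csf1r and Flt3 had 0 CPM in both groups, while Cd22 (18.3 CPM in Ctrl and 12.4 in cKO), Cd79a (2.91 and 1.62) and Xcr1 (6.38 and 5.64) were read. Double-positive thymocyte markers (8 of 10) came to 141 to 148 CPM in Ctrl and 185 to 225 CPM in cKO, most of it Cd4, which iNKT cells also carry (limma adjusted p 0.325, and 0.0169 with the block), and Rag1 was at 0.283 to 1.20 CPM in Ctrl and 1.22 to 2.88 CPM in cKO. Regulatory T cell markers (4 of 6) came to 49.0 to 59.9 and 63.8 to 86.1 CPM, where Il2ra, also an activation gene, rose to 37.7 ± 1.47 CPM from 8.64 ± 0.644 CPM in Ctrl (limma adjusted p 0.00215). Epithelial and stromal markers (7 of 12) came to 35.4 to 43.3 and 61.2 to 76.0 CPM, most of it Pecam1, also found on leukocytes, which rose from 26.7 ± 3.80 to 57.0 ± 8.09 CPM (limma adjusted p 0.0423), and erythroid and platelet markers (2 of 9) to 0.699 to 4.88 and 0.294 to 5.24 CPM. Markers of iNKT2 and iNKT17 cells (6 of 11) came to 240 to 271 and 205 to 241 CPM. The thymocyte, regulatory T cell and epithelial and stromal sums were higher in every cKO library than in any Ctrl library. In these lists the log2 fold change was negative for 1 of 7, 2 of 4 and 5 of 7 tested genes, in that order. P2rx7, P2rx4, Art2b and Adora2a were also higher in every cKO library than in any Ctrl library. The part of these lists in the levels of the 7 genes was not tested.

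Genes with the most similar pattern over the 6 libraries were named by Pearson correlation of log2(CPM + 1), among genes that averaged 5 CPM or more, as a description over points that share the replicate 3 difference. For P2rx7 these were Cables1 (0.995), Plekhf1 (0.991) and Rrad (0.988), and for P2rx4 Cd47 (0.996), Csf1 (0.995) and H2-D1 (0.995). For Art2b they were Nabp1 (0.990), Atg12 (0.989) and Plekhf1 (0.989), so that Plekhf1 was among the nearest of P2rx7 and of Art2b. Of these, Csf1 passed in both limma fits, Cables1, Plekhf1, Rrad, Cd47 and Nabp1 passed only with the block, and H2-D1 and Atg12 passed in neither. Nt5e was nearest to Apol9a (0.997), Coro2a (0.997) and Fgl2 (0.996), which each passed as lower in cKO. Since the correlations ran over both groups, genes nearest to a gene that separated the groups were likely to differ in the same direction. Adora2a was nearest to Fam111a (0.997), Arl5c (0.994) and Gna15 (0.990), of which Arl5c and Gna15 passed with the block. Entpd1 was nearest to Dffb (0.997), Sgta (0.992) and Nt5c3b (0.991), and Cd38 was nearest to Pdlim7 (0.986), Jag1 (0.972) and Tbc1d4 (0.970).

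The authors' deposited table gave Nt5e a log2 fold change of -1.79 with an adjusted p of 3.65e-16 and marked it as lower. It marked none of the other 6 genes. In the authors' deposited table the adjusted p was 0.103 for Art2b (log2 fold change 2.18), 0.419 for P2rx4 (1.35) and 0.99998 for P2rx7 (1.83), Adora2a (0.37), Entpd1 (0.15) and Cd38 (-0.020).

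Other tools gave calls for the same genes with different shares of the table. edgeR called 0 of the 7 genes higher without the block (0.0765% of all tested genes) and Nt5e lower (0.185%). With the block edgeR called P2rx7, P2rx4 and Art2b higher (1.46%) and Nt5e lower (1.53%). DESeq2 called these 3 genes and Adora2a higher and Nt5e lower, both without the block (1.80% and 1.73% of all tested genes) and with it (2.40% and 2.10%). In replicates 1 and 2 alone limma called P2rx4 higher (0.797%) and Nt5e lower (1.06%). With the block these 2 replicates also gave P2rx7 and Art2b as higher (3.00%), beside Nt5e as lower (3.01%).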

How the data were processed

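RNA-seq libraries of thymic iNKT1 cells (3 Ctrl, 3 cKO) were read from 1 table. Per the submitters' processing notes, Trimmomatic 0.33, STAR 2.5.2, HTSeq 0.6.1, edgeR and mm10 were used. The authors deposited CPM per library. Beside it the authors give, for each gene, their own log2 fold change, mean log2 CPM, edgeR score, p-value and adjusted p-value. WT and KO columns were taken as Ctrl and cKO, the only groups. All CPM values (100%) were whole multiples of 1 read within 0.01 reads, so reads were recovered. Library totals ran from 28832779 to 68092478 reads, which made 1 read worth 0.0147 to 0.0347 CPM; totals describe counting error only. The chi-square between libraries of a group was at least 18.7 per degree of freedom, so none were duplicates. The counting strand setting is not given in the sources used here.

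The unit being CPM, limma 3.58.1 was fitted to log2(CPM + 1), which understates changes of low genes, for genes averaging 1 CPM or more, with group as the only term, a trend and robust moderation, and Benjamini-Hochberg adjustment over all tested genes (threshold 0.05). edgeR 4.0.16 and DESeq2 1.42.0 were run on recovered reads as alternatives (DESeq2 gave no adjusted p for 3955 genes, which count as not called). Simulated data were fitted with limma and edgeR, with and without the block, and with DESeq2 only with the block. In those data same-numbered libraries shared their levels by design outside the changed genes, so they cannot check the pairing. Same-numbered libraries' deviations from their group means correlated at 0.855, 0.687 and 0.924, so replicate number was also fitted as a block. The pairing comes from these correlations only, since the labels do not state it. Ctrl replicate 2 correlated slightly more with cKO replicate 1 (0.718). The members and lists were chosen with earlier results of these data known. Named are the 7 genes, Tgfbr2, pathway genes past the threshold in either fit, the 2 most abundant genes of each list, close relatives of the 7, and the 3 genes nearest in pattern; neighbours, Il2ra and Pecam1 and single marker genes were chosen after their values were seen. Coordinates are those of the table; of its gene identifiers 99.1% are in GENCODE release M21 (GRCm38).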

Additional observations from a re-analysis of the deposited data

How the results depend on the processing

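Nt5e passed in all 14 alternatives and in the 6 fits that each left out a library (log2 fold change -1.91 to -1.73), and 1 of the 7 genes passed as lower in each. The higher genes depended on the replicate block and the tool; the cause was not tested. Against 0 without the block, members called higher were 3 with the replicate block, 3 with TMM and the block, 3 with edgeR and the block, 4 with DESeq2, 4 with DESeq2 and the block, 1 among genes of at least 5 CPM, 1 in replicates 1 and 2, and 3 there with the block (added after the data had been seen); every fit that left out a library gave 0. P2rx7 passed with the block (1.46), with TMM and the block (1.52), with edgeR and the block (1.75), with DESeq2 without (1.81) and with the block (1.76), and in replicates 1 and 2 with the block (1.26). In the same order P2rx4 passed at 1.18, 1.24, 1.31, 1.34, 1.32 and 1.13, and also among genes of at least 5 CPM (1.18) and in replicates 1 and 2 (1.13). Art2b passed at 1.96, 2.01, 2.23, 2.17, 2.24 and 1.99. Adora2a passed only under DESeq2, without (0.36) and with the block (0.36). The block changed no other call among the 7 genes. Leaving out a library gave 1.16 to 1.74 for P2rx7, 1.04 to 1.28 for P2rx4, 1.55 to 2.24 for Art2b, 0.25 to 0.35 for Adora2a, -0.0767 to 0.27 for Entpd1 and -0.29 to 0.10 for Cd38. Pathway genes called higher (0 without the block) were 5 with the block, 6 with TMM and the block, 6 with edgeR and the block, 7 with DESeq2, 8 with DESeq2 and the block, 1 among genes of at least 5 CPM, 3 in replicates 1 and 2 and 6 there with the block. Those called lower (2) were 1 under edgeR, 4 under DESeq2 with or without the block, 4 in replicates 1 and 2 with the block, and 1 to 2 when a library was left out. Over all tested genes 104 passed without the block, against 451 with it, 514 with TMM and the block, 41 under edgeR and 469 with its block, 554 under DESeq2 and 706 with its block, 291 in replicates 1 and 2 and 943 there with the block, and 14 to 85 when a library was left out. As higher, 265 of 15691 passed with TMM and the block and 43 of 10141 among genes of at least 5 CPM. When a library was left out, 3 to 19 passed as higher and 10 to 66 as lower. Shares called higher and lower under limma, edgeR and DESeq2, and in replicates 1 and 2, are given above.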
